A study of Mus musculus with 4 samples.

Results

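The Rab small GTPases and the proteins that switch them on and off were examined across RNA-seq libraries of BV-2 cells, an immortalised mouse microglial line. Members were taken by symbol: Rab followed by a digit, symbols starting with Tbc1d, and Rin1, Rin2, Rin3, Rabgef1, Rabgap1, Rabgap1l and Rabif. This gave 109 genes, with 152 RefSeq transcript records, out of 23783 genes in the deposited count table. They comprised 57 Rab GTPases, 7 exchange factors, 34 GTPase-activating proteins, 5 Rab11 effectors, 5 RNAs named as opposite-strand transcripts, and Rab5if, whose product was named for an interaction with Rab5. The tested cells received lipopolysaccharide (LPS), the bacterial cell wall component that Toll-like receptor 4 senses, at 10 ng/ml for 4 h, with 2 libraries. The controls were BV-2 cells of the same time point labelled as control, also with 2 libraries. No genotype or other agent is given for either group. The growth text, shared by both groups, also describes shaking cells off mixed glial cultures, although the samples are labelled as the line. It is not stated whether replicates came from separate cultures, so p-values measure the spread between these libraries, which may be technical.

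Rab proteins cycle between a GTP-bound form on membranes and a GDP-bound form. Exchange factors load GTP, and GTPase-activating proteins, most of them with a TBC domain, return the protein to its resting form. Each Rab marks certain membranes, such as Rab5 on early endosomes, Rab7 on late endosomes and Rab11 on recycling endosomes, and recruits the effectors that move and fuse vesicles. In macrophages these routes carry phagosomes to lysosomes, send cytokines to the surface and move Toll-like receptor 4 between the surface and endosomes.

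Library totals ran from 2778686 to 3368693 counts, of which 5 very abundant records took 53.4% to 67.5%, so that 902176 to 1425303 counts were left for all other records. Of 12 microglial and macrophage markers, 11 had counts and 7 passed the count filter given below. Itgam, which has 2 records, was listed at 0. The summed marker level was 6098 to 6126 normalised counts in the LPS libraries and 3219 to 3668 in the control libraries. The list includes Cd14, and the share of each marker in this difference was not examined. Markers of astrocytes, neurons and oligodendrocytes, 6 of each, summed to at most 1.96 normalised counts in any library, and Aqp4, Aldh1l1, Nefl, Mag, Mog and Sox10, with 1 record each, were at 0. The other markers at 0 have 2 or more records, and counts of such genes are low throughout the table, as described below.

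A normalised count here is a read count scaled to the TMM-corrected size of its library, and a record was tested where it passed a filter built on a minimum count of 10. Of the 109 members, 59 were tested, 50 were not, and 19 had no count in any library. A gene that passed through 1 group alone had to differ, which holds for Rab11fip1 below. Rab3il1 is a partial case, with 15 and 9 counts after LPS and 49 and 62 in controls. The share of members lower, given below, was not recomputed without Rab3il1. With edgeR's quasi-likelihood test fitted to all 6981 records and a threshold of 0.05 on the adjusted p, 3 members rose and 5 fell after LPS. Rab11fip1, Rab20 and Rab32 rose, and Rab7b, Rin2, Rab3il1, Tbc1d4 and Rab40c fell. The members higher made up 5.08% of those tested, against 3.82% of all records tested, and without Rab11fip1 they were 2 of 58, or 3.45%. No record was left out of the 3.82% in that way, so the 3.45% is filtered unlike it. The members lower made up 8.47% of those tested, against 1.70% of all records, and in either direction the shares were 13.6% of the members and 5.53% of all records. The median log2 fold change was -0.02 over the tested members and -0.01 over all records tested. In bulk RNA, fewer cells with a transcript and less of it per cell cannot be told apart.

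The count of calls moved with the library left out. Such a fit takes its spread from the other group's pair alone. The chi-square per degree of freedom between replicates was 1.87 for the LPS pair and 7.05 for the control pair. Fits without a library are therefore given as effect sizes only, apart from a tally over all alternatives in the closing section. Over all alternative settings and left-out libraries the log2 fold change ran from 1.52 to 1.66 for Rab20 and from -2.79 to -2.66 for Rab7b. It ran from -2.62 to -2.38 for Rin2 and from -2.74 to -2.10 for Rab3il1. With a trend on transcript GC content and length removed, all 8 called members were past the threshold with Tbc1d16 added. Over all records that fit called 448 higher and 356 lower, against 267 and 119 without the correction. The excess of member calls over the share of all records was thus smaller with the correction. Of the calls over all records, 55.7% were higher, against 69.2% without it.

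**Figure D1:**
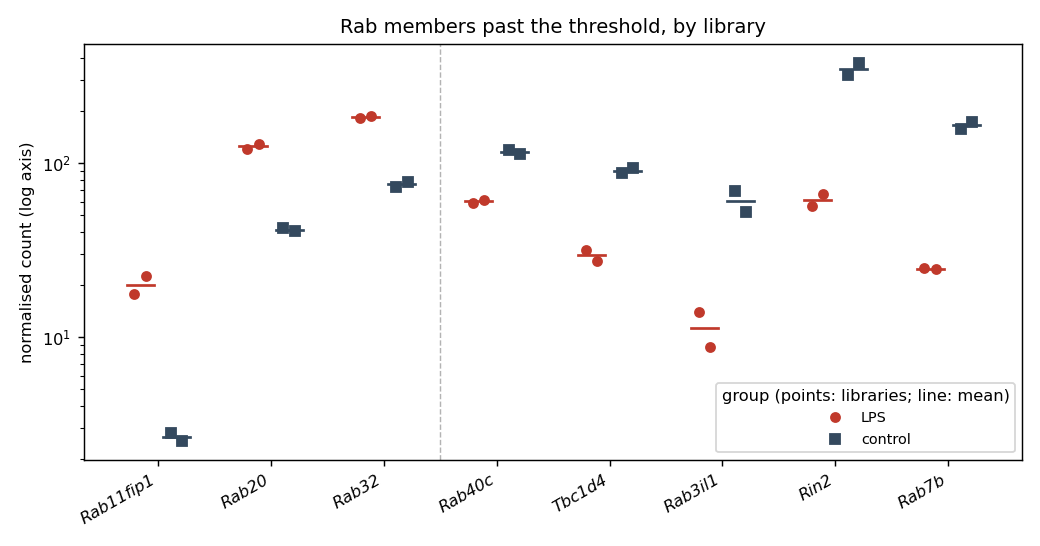
Normalised counts (log axis) of the 8 members past the threshold in each library, with LPS libraries as red circles on the left of each gene and control libraries as dark squares on the right. Lines are group means (n = 2). The dashed line parts the 3 members that rose from the 5 that fell. For each of the 8 genes the LPS points and the control points do not overlap.

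The 250 bases before the annotated start site are shown for a pair of GTPase genes that rose, Rab20 and Rab32, and a pair of exchange factor genes that fell, Rin2 and Rab3il1. They come from RefSeq on GRCm38.p6 and read 5′ to 3′ on the gene's strand, at chr8:11478641-11478890 (minus strand) for Rab20, chr10:10558208-10558457 (minus strand) for Rab32, chr2:145785866-145786115 (plus strand) for Rin2 and chr19:10017944-10018193 (plus strand) for Rab3il1. The Rin2 and Rab3il1 windows lie inside the span of their genes, before a start downstream of the gene's outermost one. The RefSeq start used lies 70 bases for Rab20 and 58 bases for Rab32 from the GENCODE start paired with the record. Positions before the start depend on this choice. Capitals mark CACGTG, the E-box that reads the same on both strands.
Rab20: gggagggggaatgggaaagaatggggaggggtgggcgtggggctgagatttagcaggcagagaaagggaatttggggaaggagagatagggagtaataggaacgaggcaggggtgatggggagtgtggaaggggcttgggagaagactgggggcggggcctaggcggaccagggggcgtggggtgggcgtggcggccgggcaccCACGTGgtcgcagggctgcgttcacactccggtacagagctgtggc
Rab32: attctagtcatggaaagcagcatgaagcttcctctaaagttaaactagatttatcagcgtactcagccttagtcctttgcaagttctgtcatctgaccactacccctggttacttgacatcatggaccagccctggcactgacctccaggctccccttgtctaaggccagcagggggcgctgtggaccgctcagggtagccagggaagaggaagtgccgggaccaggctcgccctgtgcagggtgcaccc
Rin2: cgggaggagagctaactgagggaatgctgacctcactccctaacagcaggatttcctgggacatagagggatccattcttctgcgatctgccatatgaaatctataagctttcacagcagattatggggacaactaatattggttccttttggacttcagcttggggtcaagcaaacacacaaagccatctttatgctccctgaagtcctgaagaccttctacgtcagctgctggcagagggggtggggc
Rab3il1: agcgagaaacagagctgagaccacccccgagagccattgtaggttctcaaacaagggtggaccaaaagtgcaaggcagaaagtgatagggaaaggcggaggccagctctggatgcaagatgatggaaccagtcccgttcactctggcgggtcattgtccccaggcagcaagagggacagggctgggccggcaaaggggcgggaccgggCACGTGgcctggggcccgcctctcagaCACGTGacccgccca

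Rab20 had this E-box from 46 to 41 bases before its start, and Rab3il1 had it from 42 to 37 and again from 15 to 10 bases before its start. The Rab32 and Rin2 windows held none. Of the 50 tested members with a window, 7 held CACGTG (Rab10os, Rab20, Rab21, Rab3gap2, Rab3il1, Rab5a and Tbc1d13), against 6.02% of 32817 windows in all. The NF-kB consensus was found in 8 of the 50 (Rab11a, Rab28, Rab3gap2, Rabgap1, Rabif, Tbc1d10a, Tbc1d10b and Tbc1d23) and in 7.25% of all windows. None of those 8 was past the threshold. With 5.53% of all records called, this says nothing about the motif in so small a group. The AP-1 motif TGANTCA was in 0 of the 50 and in 6.75% of all windows, and the interferon response core GAAANNGAAA was in 1, Rab10os, and in 2.97% of all. Motifs were searched on both strands, and a match is a string of letters in this window, not a shown binding site.

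Among GTPases of early endosomes and phagosomes, Rab20 rose and the other 6 tested of 8 did not pass. Of all records tested, 5.53% were called in either direction, and so few genes give no share for the group. Rab20 (NM_011227, chromosome 8, 11453390 to 11478640) encodes a Rab of endosomes and phagosomes that takes part in phagosome maturation in macrophages. It had 120.2 and 129 normalised counts in the LPS libraries, against 42.2 and 40.5 in the control libraries. Both LPS libraries lay well above both controls. The means were 125 ± 6.29 after LPS and 41.4 ± 1.19 in controls (SD, n = 2 each), a 3.01-fold rise (log2 fold change 1.59, SE 0.241, adjusted p 0.00191 in edgeR). Over 14 alternative settings and left-out libraries its log2 fold change ran from 1.52 to 1.66.

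The Rab5 paralogues, which organise early endosome fusion, differed in level but gave no call. Rab5c had 453 and 419.5 normalised counts after LPS and 482 and 398 in controls, with overlapping groups and a log2 fold change of -0.01 (95% interval -0.42 to 0.40). Rab5b had 144 and 127 after LPS and 131 and 149 in controls, which also overlapped (interval of the log2 fold change -0.51 to 0.42). Rab5a had 43.5 and 42.1 after LPS and 22.5 and 36.3 in controls, without overlap, and its log2 fold change of 0.49 had an interval of -0.20 to 1.18. Rab31, a relative of Rab22a at the trans-Golgi and endosomes, had 211 and 191 after LPS and 293 and 238 in controls (log2 fold change -0.40, adjusted p 0.400 in edgeR). The log2 fold change of Rab31 was -0.24 without control replicate 1 and -0.55 without control replicate 2. Rab21 and Rab22a, both of endocytic membranes, had log2 fold changes of 0.34 and 0.00.

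In the late endosome, lysosome and autophagy group, 8 of 12 GTPase genes were tested, 1 rose and 1 fell. Of all records tested, 3.82% were higher and 1.70% lower, and so few genes give no share for the group. Rab7b (NM_145509, chromosome 1, 131688681 to 131715443) encodes a GTPase between late endosomes and the trans-Golgi network that lowers Toll-like receptor 4 signalling when overexpressed in macrophages. It had 24.96 and 24.4 normalised counts after LPS and 156 and 173 in controls. The LPS libraries were nearly equal and far below both controls. Its log2 fold change was -2.73 (95% interval -3.28 to -2.18, adjusted p 3.75e-05 in edgeR), so that controls held 6.65-fold more. Rab29, which starts 151.8 kb after the end of Rab7b on the same strand, had 49.0 and 36.2 after LPS and 68.9 and 62.5 in controls (log2 fold change -0.61, interval -1.21 to -0.02, adjusted p 0.307 in edgeR).

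Rab32 (NM_026405, chromosome 10, 10545039 to 10558207) encodes a GTPase of lysosome-related organelles that acts in macrophage defence against intracellular Salmonella. It had 180.3 and 186 normalised counts after LPS and 73.1 and 77.6 in controls. The groups lay apart, with little spread within either. The means of 183 ± 3.91 after LPS and 75.4 ± 3.19 in controls (SD, n = 2 each) gave a 2.42-fold rise (log2 fold change 1.27, SE 0.214, adjusted p 0.00390 in edgeR). Without LPS replicate 2 the log2 fold change was 1.26. Rab38, its closest relative, had no count in any library. Rab12, a regulator of transport from recycling endosomes to lysosomes, had 46.2 and 36.2 after LPS and 23.9 and 25.3 in controls without overlap, and its log2 fold change of 0.74 did not pass (interval 0.06 to 1.42, adjusted p 0.276). Rab33b, a Golgi GTPase that binds the autophagy protein Atg16l1, had 382 and 236 after LPS and 354 and 276 in controls, with wide and overlapping groups. Rab9, Rab24 and Rab28 had log2 fold changes of 0.08, -0.10 and -0.44, none past the threshold.

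Rab7, the main GTPase of late endosomes, was below the filter. Its 5 records together had 2 and 4 counts in the LPS libraries and 1 and 1 in the control libraries, all on NM_001293652, which has 135 exon bases that no other Rab7 record covers. Rab6a, with 2 records, had 1 and 1 counts after LPS and 0 and 1 in controls. Rab18, also with 2 records, was listed at 0 throughout, although NM_181070 has 5804 exon bases of its own. Across the members, 57 of 82 genes with 1 record were tested (69.5%), against 2 of 27 genes with 2 or more records (7.41%). Over the whole table the shares were 34.8% and 6.07%. The handling of reads shared between records of 1 gene is not given in the sources used here, and its part in these low counts was not tested. The low counts of genes such as Rab7, Rab6a, Rab18, Tbc1d5, Tbc1d9b and Rabgef1 are therefore not read here as low levels of expression.

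None of the 9 tested of 13 GTPases of recycling endosomes and the plasma membrane passed the threshold in edgeR, DESeq2 or limma-voom, and 1 had an unadjusted p below 0.05 in edgeR. With 5.53% of all records called, a count of 0 among 9 is near the background. Rab10, which promotes the return of Toll-like receptor 4 to the macrophage surface, came closest. It had 359 and 356 normalised counts after LPS and 218 and 282 in controls. Both LPS libraries lay above both controls, and the log2 fold change was 0.51 (interval 0.08 to 0.94, adjusted p 0.226 in edgeR). The log2 fold change of Rab10 was 0.35 without control replicate 1 and 0.71 without control replicate 2. The span of the opposite-strand transcript Rab10os overlaps 2.95 kb at 1 end of the 62.5 kb span of Rab10, and the strand setting of the counting is not given, so reads of the pair cannot be told apart within that overlap.

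The other genes of this group held narrow or overlapping values. Rab11a, which serves recycling endosomes and carries Toll-like receptor 4 to phagosomes, had 116 and 108 normalised counts after LPS and 84.4 and 133 in controls. Rab11b had 176 and 155 after LPS and 193 and 128 in controls. Both genes overlapped between groups. Rab8a, a GTPase of exocytosis and of lysosomal stress, had 238 and 234 after LPS and 263 and 213 in controls (interval of the log2 fold change -0.44 to 0.43). Rab35, of fast recycling, had 251 and 215 after LPS and 228 and 214 in controls (interval -0.35 to 0.51). Rab8b spread widely in controls, with 86.0 and 116 after LPS and 46.4 and 109.7 in controls. Its log2 fold change of 0.32 was -0.11 without control replicate 1 and 1.11 without control replicate 2. Rab14, Rab4a and Rab4b had both LPS libraries below both controls, with log2 fold changes of -0.31, -0.29 and -0.33 that did not pass. In this group 3 of 9 tested genes (33.3%) lay wholly below and 1 (11.1%) wholly above. Over all records tested the shares were 21.9% and 21.4%, and so few genes give no share for the group.

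GTPases of the endoplasmic reticulum and Golgi were tested in 4 of 13 cases, and 0 were called, which says nothing about the group where 5.53% of all records were called. None of the 4 had an unadjusted p below 0.05 in edgeR, and DESeq2 and limma-voom called 0 of them. Rab1b, which drives transport from the endoplasmic reticulum to the Golgi, had 639.8 and 611 normalised counts after LPS and 778 and 639 in controls. The groups overlapped slightly, and the 95% interval of its log2 fold change was -0.58 to 0.22. Its paralogue Rab1a had 124 and 144 after LPS and 111 and 172 in controls. Rab2a had 135 and 109 after LPS and 87.2 and 135 in controls, and Rab2b was low, with 11.7 to 14.8 after LPS and 7.03 to 11.8 in controls. GTPases of regulated secretion were tested in 2 of 8 cases. Rab3d had 9.25 and 7.82 after LPS and 15.5 and 11.8 in controls (interval -1.64 to 0.38), and Rab26 had 18.5 and 12.7 after LPS and 16.9 and 16.0 in controls. Rab27a had at most 2 counts in any library, and Rab27b, Rab3a, Rab3b and Rab37 were listed at 0.

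Rab40c (NM_139154, chromosome 17, 25882114 to 25919714) encodes an unusual GTPase whose SOCS box recruits a ubiquitin ligase. It had 59.2 and 61.6 normalised counts after LPS and 119.6 and 112 in controls. The groups lay apart, and the log2 fold change was -0.94 (SE 0.229, adjusted p 0.0362 in edgeR). This was the highest adjusted p of the 8 calls. It was accompanied by an adjusted p of 0.216 in the DESeq2 Wald test. The log2 fold change was -0.89 without LPS replicate 1 and -0.96 without LPS replicate 2. Rab40b was listed at 0.

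**Figure D2:**
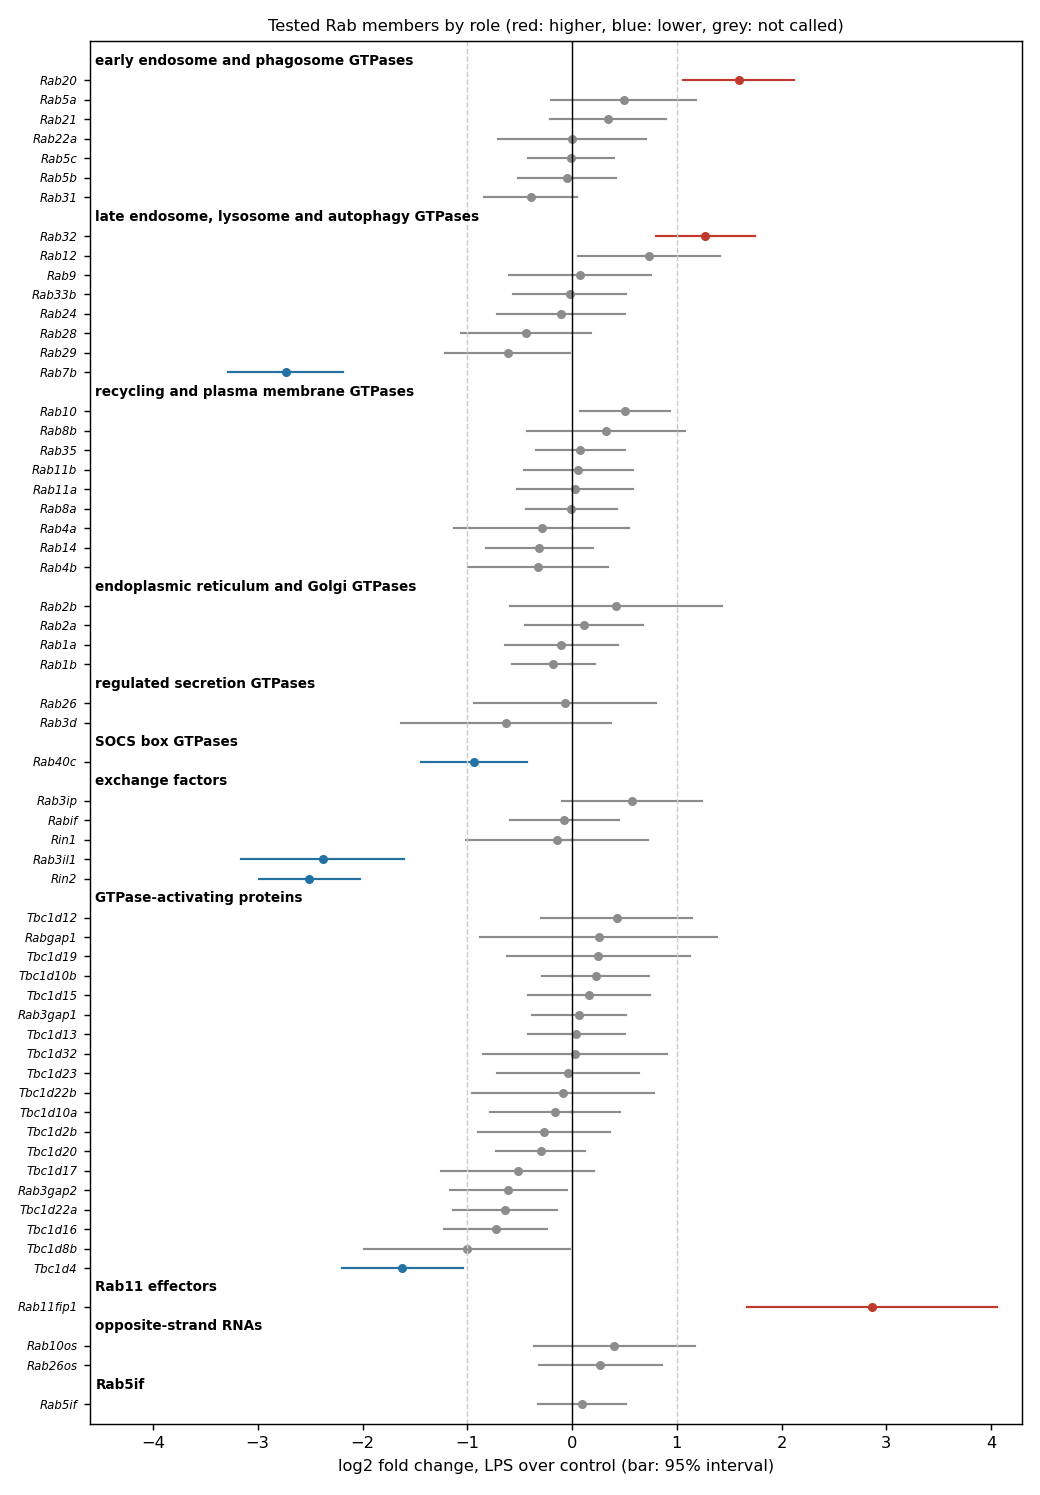
Log2 fold change of LPS over control for the 59 tested members, grouped by role, with 95% intervals from the edgeR fit as bars. Red marks the 3 members that rose, blue the 5 that fell and grey the 51 not called, and dashed lines stand at -1 and 1. Tbc1d8b lies at -1.005, and the other grey points lie between -0.73 and 0.74.

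Of 7 exchange factor genes, 5 were tested and 2 fell, where 1.70% of all records tested were lower. So few genes give no share for the group. Rin2 (NM_028724, chromosome 2, 145771727 to 145887616) encodes a Ras-binding exchange factor for Rab5. It had 56.4 and 66.5 normalised counts after LPS and 322 and 376 in controls. Every LPS value was far below every control value. The means were 61.4 ± 7.14 after LPS and 349 ± 38.4 in controls (SD, n = 2 each), and the log2 fold change stood at -2.51 (SE 0.219, adjusted p 2.61e-05 in edgeR), which put controls 5.69-fold higher. Its paralogue Rin1, also a Rab5 exchange factor, had 23.1 and 23.5 after LPS and 36.6 and 17.7 in controls, with overlap and an interval of the log2 fold change of -1.01 to 0.72. Rin3, with 2 records, had at most 1 count per record and library.

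Rab3il1 (NM_144538, chromosome 19, 10001669 to 10038380), which encodes the exchange factor GRAB for Rab3a and Rab8, fell as well. It had 13.9 and 8.80 normalised counts after LPS and 68.9 and 52.3 in controls. The spread within each group was wide, but the groups did not overlap. The log2 fold change was -2.38 (95% interval -3.16 to -1.60, adjusted p 0.00168 in edgeR), with controls 5.21-fold higher. Its paralogue Rab3ip, which encodes the Rab8 exchange factor Rabin8, had the opposite sign, with 41.6 and 36.2 after LPS and 23.9 and 27.9 in controls. Rab3ip did not pass (log2 fold change 0.57, interval -0.10 to 1.24, adjusted p 0.435), and the difference between the paralogues was not tested. Rabif, a chaperone-like factor for nucleotide-free Rabs, had 104 and 80.2 after LPS and 92.8 and 101 in controls.

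Of 34 genes for GTPase-activating proteins, 19 were tested and 1 fell. In either direction 5.26% of the tested genes were called, close to the 5.53% of all records tested. Tbc1d4 (NM_001081278, chromosome 14, 101442360 to 101609281) encodes AS160, which inactivates Rab10 and Rab8a and is best known from the insulin-driven movement of GLUT4 vesicles in fat and muscle. It had 31.4 and 27.4 normalised counts after LPS and 87.2 and 93.7 in controls. The LPS libraries lay clearly below the controls, and the log2 fold change stood at -1.62 (SE 0.262, adjusted p 0.00313 in edgeR). The log2 fold change of Tbc1d4 was -1.51 without LPS replicate 2. Its relative Tbc1d1 had 1 and 1 counts after LPS and 4 and 4 in controls, below the filter.

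Several other genes for GTPase-activating proteins lay lower after LPS without passing. Of the 19 tested, 6 (31.6%) lay wholly below controls, Tbc1d4 included, and 0 wholly above. Over all records tested the shares were 21.9% and 21.4%. Tbc1d16, which acts on Rab4a, had 121 and 131 normalised counts after LPS and 242 and 179 in controls. The groups did not overlap, and the log2 fold change was -0.73 (interval -1.22 to -0.24, adjusted p 0.100 in edgeR). With the GC content and length trend removed the adjusted p of Tbc1d16 was 0.0240 in edgeR, and in the DESeq2 Wald test it was 0.310. Over all alternatives its log2 fold change ran from -0.95 to -0.50. Tbc1d22a, a Golgi protein, had 78.6 and 70.4 after LPS and 108 and 123 in controls. Its log2 fold change was -0.64 (adjusted p 0.176 in edgeR) and -0.72 without control replicate 1. Rab3gap2, the non-catalytic subunit of the Rab3 GTPase-activating complex, had 54.5 and 46.9 after LPS and 70.3 and 83.6 in controls. The log2 fold change of Rab3gap2 was -0.61 (adjusted p 0.271 in edgeR) and -0.71 without control replicate 1, and its span overlaps Iars2. Its catalytic partner Rab3gap1 had 153 and 169 after LPS and 148 and 159 in controls (log2 fold change 0.07, interval -0.38 to 0.52).

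Tbc1d8b was the 1 member with at least a 2-fold difference that was not called. It had 12.02 and 12.7 normalised counts after LPS and 14.1 and 32.9 in controls, so that the difference rested on control replicate 2. Its log2 fold change of -1.005 had an interval of -1.99 to -0.02 and was -0.19 without control replicate 2 and -1.40 without control replicate 1. Tbc1d13, a Rab35 regulator and the most abundant of this class by normalised count, had 297 and 269.9 after LPS and 322 and 232 in controls. Tbc1d20, which acts on Rab1 and Rab18, had 169 and 183 after LPS and 225 and 209 in controls (interval -0.73 to 0.13). Tbc1d15, a Rab7 regulator on mitochondria, had 137 and 157 after LPS and a wide control spread of 94.2 and 165. Its log2 fold change of 0.16 was -0.15 without control replicate 1 and 0.64 without control replicate 2. The remaining tested genes of this class, among them Tbc1d10a, Tbc1d10b, Tbc1d12, Tbc1d17, Tbc1d19, Tbc1d23 and Tbc1d2b, had log2 fold changes from -0.52 to 0.43. Without control replicate 2, Tbc1d12 had a log2 fold change of 0.998, against 0.43 with all libraries. In the same fit Tbc1d17 had -0.89, against -0.52 with all libraries.

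Rab11fip1 (NM_001080813, chromosome 8, 27138773 to 27174646) encodes an effector of Rab11 and Rab4 on recycling endosomes. It had 19 and 23 counts in the LPS libraries, against 2 and 3 in the controls, so it passed the filter through the LPS libraries. In normalised counts these were 17.6 and 22.5 after LPS and 2.81 and 2.53 in controls. The groups lay apart at a low level, with a log2 fold change of 2.86 (95% interval 1.67 to 4.05, adjusted p 0.00843 in edgeR). The adjusted p was 0.107 in the DESeq2 Wald test, and the log2 fold change was 2.69 without LPS replicate 2. All its counts were on a record with 4748 exon bases of its own, while the other record, NM_029423, has 0 such bases and 0 counts. The other 4 genes of the family, Rab11fip2, Rab11fip3, Rab11fip4 and Rab11fip5, had at most 6 counts on their most abundant record in any library and were not tested.

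Rab5if had 288 and 253 normalised counts after LPS and 242 and 263 in controls, which overlapped. Among the opposite-strand RNAs, Rab26os had 59.2 and 58.7 after LPS and 56.3 and 43.0 in controls, and Rab10os had 41.6 and 33.3 after LPS and 38.0 and 21.1 in controls. Neither passed the test.

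Levels of different genes were compared as normalised counts per kb of the transcript paired with each record. Among the 59 tested members, which hold 2 of the 27 genes with several records, the order by the mean over all 4 libraries began with Rab1b, at 327 per kb after LPS and 370 per kb in controls (group means). It was followed by Rab5if, with 259 per kb after LPS and 242 in controls, and by Rab5c, with 228 after LPS and 230 in controls. The difference between Rab5if and Rab5c was not tested. Rab26os came next, from a transcript of 298 bases, and then Rab33b with 88.4 per kb after LPS and 90.3 in controls. The genes that LPS changed took different places in each group. Rab20 stood at 89.5 per kb after LPS and 29.7 in controls, and Rab32 at 85.2 after LPS and 35.1 in controls. Rin2 stood at 13.2 per kb after LPS and 74.996 in controls, and Rab7b at 5.49 after LPS and 36.6 in controls. After LPS, Rab20, Rab32 and Rab33b thus lay close to each other, while in controls Rin2 lay near Rab35 with 78.4 and Rab31 with 76.4 per kb.

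**Figure D3:**
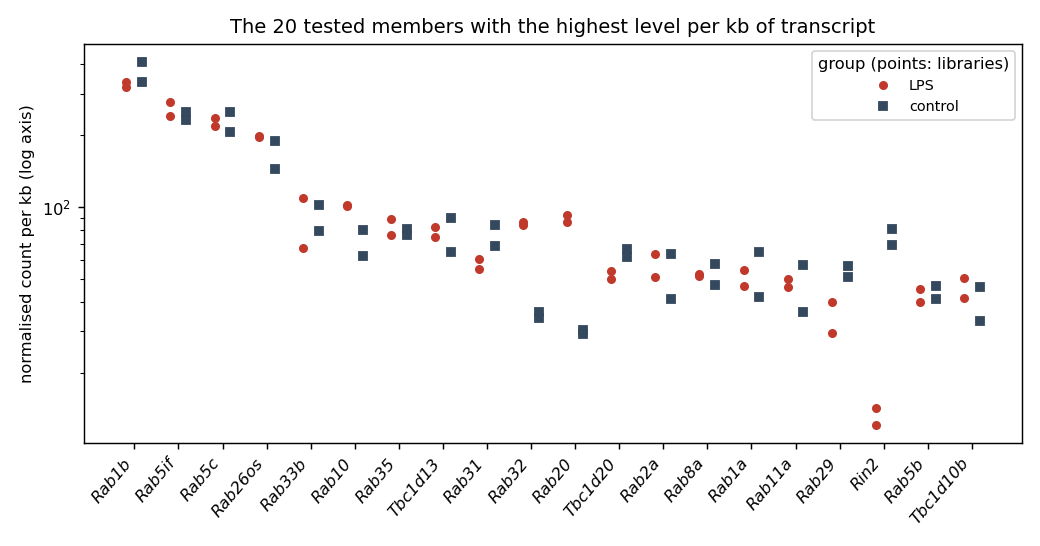
Normalised counts per kb of transcript (log axis) for the 20 tested members with the highest mean level per kb, in order of that mean. Red circles on the left are LPS libraries and dark squares on the right are control libraries (2 each). Rab32, Rab20 and Rin2 show the widest gaps between groups among these genes.

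Of the 51 tested members not called, 33 had overlapping groups, 6 had both LPS libraries above both controls and 12 had both below. With the called genes, 9 of 59 (15.3%) lay wholly above and 17 (28.8%) wholly below, against 21.4% and 21.9% of all records tested. For 32 of the 51, the 95% interval of the log2 fold change lay between -1 and 1, so that a 2-fold change either way fell outside it. For the other 19 the interval reached a 2-fold change.

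The replicate pairs differed in their spread. Across the 59 tested members, transcript GC content had a Spearman's rho of 0.218 with the log2 ratio of replicate 1 over replicate 2 in the LPS pair, and of 0.696 in the control pair. The points share their libraries, so these are descriptions. Members of low GC content, such as Rab8b, Tbc1d15, Rab11a and Tbc1d8b, were lower in control replicate 1, and members of high GC content, such as Rin1 and Tbc1d17, were higher in it. With the GC content and length trend removed, the log2 fold change was 0.22 for Rab8b and 0.01 for Tbc1d15. It was -0.29 for Tbc1d17 and -1.07 for Tbc1d8b, and the values without this correction are given above. The cause of the difference between the control libraries was not tested. The 8 called members had GC contents from 47.7% to 56.8%.

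**Figure D4:**
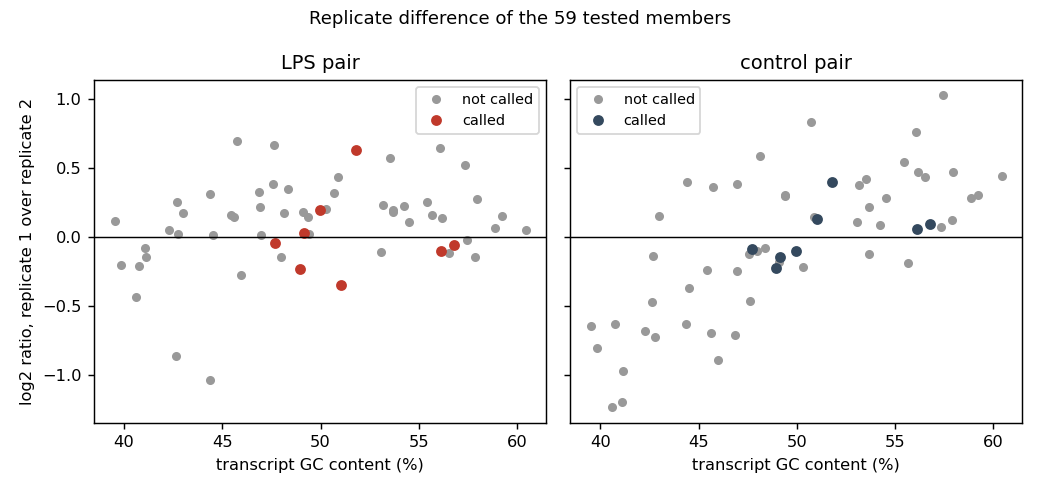
Log2 ratio of replicate 1 over replicate 2 against transcript GC content for the 59 tested members, in the LPS pair (left) and the control pair (right). Coloured points are the 8 called members. The control ratios climb with GC content (rho 0.696), and the LPS ratios do so less (rho 0.218).

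Outside the symbol rule, 86 further genes of the Rab cycle on a list of 88 were in the table, and 52 were tested. Of these, 2 rose and 2 fell, or 7.69%, close to the 5.53% of all records tested, and their median log2 fold change was -0.08. Micall2, which encodes a Rab13 effector that links to actin, had 77.7 and 60.6 normalised counts after LPS and 25.3 and 13.5 in controls (log2 fold change 1.90, adjusted p 0.00650 in edgeR). Rilpl2, which encodes a protein that binds Rab8 and Rab10 phosphorylated by LRRK2, had 319 and 307 after LPS and 173 and 160.4 in controls (log2 fold change 0.91, adjusted p 0.0154). Both groups of values lay apart in each gene.

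Plekhm1, whose product joins Rab7 to the machinery of lysosome fusion, had 196 and 161 normalised counts after LPS and 497 and 337 in controls. Its log2 fold change was -1.21 (adjusted p 0.00835 in edgeR) and -1.08 without LPS replicate 2. Sbf2, a DENN domain gene of the myotubularin family, had 187 and 196 after LPS and 397 and 459 in controls (log2 fold change -1.16, adjusted p 0.00313 in edgeR). Of 10 tested genes of the DENN group it was the 1 called, and the median log2 fold change of the group was -0.57. For Sbf2 the log2 fold change was -1.12 when LPS replicate 1 was left out and -1.19 when LPS replicate 2 was. For Rilpl2 these were 0.90 and 0.95. Of the genes that recycle and prenylate Rabs, 0 of 4 tested GDI and escort protein genes and 0 of 3 prenylation and receptor genes passed. With 5.53% of all records called, counts of 0 in groups of this size say nothing about the groups. Of 14 tested exchange factors outside the DENN group, among them Gapvd1 and Rinl, 0 passed, with a median log2 fold change of -0.03. In these 3 groups 0 genes had an unadjusted p below 0.05 in edgeR, and DESeq2 and limma-voom called 0.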

How the data were processed

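RNA-seq of BV-2 cells gave 4 libraries, grouped by sample title. They were directional, depleted of ribosomal RNA and read from both ends, per the labels' protocols. The authors deposited 1 count table with a row for each RefSeq transcript record. The table is named as normalised, but every whole number up to 228 occurs in each column and the totals differ, so the deposited values were analysed as raw counts. The genome build was mm10, and HTSeq 0.6.1, TopHat2 2.0.10, Trimmomatic 0.33, Cufflinks 2.2.1 and CASAVA 1.8.2 appear, per the submitters' processing notes, without settings.

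Of 32915 records, 32487 took a symbol from the RefSeq gene table of GRCm38.p6, the assembly behind mm10. Each member is represented by its most abundant record. Positions are 1-based. Transcript length and GC content come from the GENCODE M21 transcript paired with the record.

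Records were filtered by filterByExpr (minimum count 10), scaled by TMM and compared as LPS over control with the quasi-likelihood test of edgeR 4.0.16 in R 4.3.3. The fit used all 4 libraries and no covariate, and p-values were adjusted over 6981 records by the Benjamini-Hochberg method (threshold 0.05). The common biological coefficient of variation was 15.8%. Intervals are 95% intervals from the fit. The chi-square per degree of freedom between replicates was 1.87 for the LPS pair and 7.05 for the control pair, so neither pair is 1 library deposited in duplicate. The libraries carry no molecular identifiers.

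Alternatives were median-of-ratios scaling, no filter and a stricter filter, DESeq2 1.42.0, limma-voom (limma 3.58.1), the 5 most abundant records left out, records summed per gene, the replicate number as a block, a GC and length correction, and each library left out. The edgeR, limma-voom, DESeq2 and GC-corrected fits were tested on simulated data with known changes. Named members are those past the threshold, the 10 with the highest mean normalised count, those with a 2-fold difference, the 5 nearest the threshold, the most abundant of each role and paralogues of those called, and other members were added after their values were seen. The members, role groups and list of other Rab-cycle genes were chosen with earlier results of these data known. Rab40b, Rab40c and Rab42 were given groups of their own after the values were seen.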

Additional observations from a re-analysis of the deposited data

How the results depend on the processing

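No alternative reversed a call. The tally that follows includes the fits without a library, whose calls take their spread from 1 pair. Of 856 values of single genes under alternatives, 768 kept their direction and side of the threshold, 12 lost a call, 18 gained one and 58 changed sign without a call on either side. The members called were 3 higher and 5 lower, and the same 8 genes, under median-of-ratios scaling, without a filter, in limma-voom, without the 5 most abundant records and with records summed per gene. With a stricter filter, a mean normalised count of 50 or more, Rab11fip1 and Rab3il1 were not tested and the other 6 were called. DESeq2 called 6 of the 8, without Rab11fip1 and Rab40c. With each library left out in turn, the members higher ranged from 1 to 7 and the members lower from 3 to 9, the members' median log2 fold change ranged from -0.13 to 0.01, all records higher from 165 to 723 and lower from 39 to 581, and other Rab-cycle genes higher from 1 to 6 and lower from 0 to 8. Over all records, 267 were higher and 119 lower. No filter gave 209 lower, the stricter filter gave 164 higher and 54 lower, and DESeq2 gave 56 lower. The GC and length correction gave 448 higher and 356 lower. For other Rab-cycle genes, where 2 rose and 2 fell, the stricter filter gave 1 higher and the GC and length correction gave 4 lower. The cause of these shifts was not tested.

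The titles number replicates 1 and 2 in both groups, and nothing says that a number marks a shared culture. Deviations of same-numbered libraries correlated at 0.231 across records. With the replicate block, 401 records were higher and 288 lower, 3 members were higher and 6 lower, with Tbc1d16 added, and 5 other Rab-cycle genes were lower. With the replicate block and the GC and length trend removed together, 547 records were higher and 544 lower, 4 members higher and 9 lower, with Rab10, Rab29, Rab31, Tbc1d16 and Tbc1d22a added, and 4 other Rab-cycle genes higher and 7 lower. Depth limits the members below the filter, where the most counted had 14 counts in a library, and genes with several records.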
